A study of Mus musculus with 20 samples.

Results

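The genes of prostaglandin and leukotriene synthesis were followed through 2 RNA-seq experiments on mouse macrophages. The 10 members were chosen by gene name as the steps of the pathway: the phospholipase Pla2g4a, the cyclooxygenases Ptgs1 and Ptgs2, the prostaglandin E synthases Ptges and Ptges2, the thromboxane synthase Tbxas1, and Alox5, Alox5ap, Lta4h and Ltc4s of the 5-lipoxygenase branch. Each was found once among the 56748 genes of each count table, and all 10 passed the filter of at least 10 counts in total in both tables. In the iNOS experiment, WT and iNOS KO cells (iNOS, inducible nitric oxide synthase, is the product of Nos2) were left unstimulated or stimulated for 48 h with IFNγ and 50 ng/mL of LPS, and each of the 4 groups had 3 libraries. The Akr1a1 experiment had the same design with WT and Akr1a1 KO RAW264.7 cells, a mouse macrophage line, and 2 libraries in each of 4 groups, with IFNγ at 10 ng/mL. Per the study's methods these RAW264.7 replicates are independent clones, and the KO was made by CRISPR-Cas9 editing of Akr1a1, a reductase of aldehydes and of S-nitroso compounds. The labels name the cells of the iNOS experiment as bone marrow-derived macrophages (BMDM) of WT or iNOS KO C57BL/6J mice that were 6 to 12 weeks old, of either sex, matured with M-CSF at 20 ng/mL and stimulated with IFNγ at 30 ng/mL. The study's methods instead describe this RNA-seq experiment in RAW264.7 cells, so the libraries are called BMDM-labelled here.

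Cytosolic phospholipase A2 releases arachidonic acid from membrane lipids, and the cyclooxygenases turn it into prostaglandin H2, which the terminal synthases convert to prostaglandin E2, thromboxane and other prostanoids. In the other branch, 5-lipoxygenase works with its activating protein to form leukotriene A4, which Lta4h hydrolyses to leukotriene B4 and Ltc4s conjugates with glutathione to form leukotriene C4. Ptgs1 is known as the constitutive and Ptgs2 as the inducible cyclooxygenase, and macrophages are known for coupling Ptgs2 with the inducible synthase Ptges upon exposure to LPS.

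The promoter windows of the 3 members that changed most on stimulation, Ptgs2 and Ptges upward and Ptgs1 downward, are shown because the results turn on these genes. Each window runs from 250 bases before to 50 bases after the start of the gene in RefSeq (GRCm38.p6), 5′ to 3′ on the gene's strand. Capitals mark the matches to the motifs searched.
Ptgs2, chr1:150099781-150100080, plus strand: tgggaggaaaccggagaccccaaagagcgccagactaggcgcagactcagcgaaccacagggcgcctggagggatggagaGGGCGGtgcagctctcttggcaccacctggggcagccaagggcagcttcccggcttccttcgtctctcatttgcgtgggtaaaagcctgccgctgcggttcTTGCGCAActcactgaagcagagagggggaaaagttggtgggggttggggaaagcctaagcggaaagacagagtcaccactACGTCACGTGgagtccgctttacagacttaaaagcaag
Ptges, chr2:30903248-30903547, minus strand: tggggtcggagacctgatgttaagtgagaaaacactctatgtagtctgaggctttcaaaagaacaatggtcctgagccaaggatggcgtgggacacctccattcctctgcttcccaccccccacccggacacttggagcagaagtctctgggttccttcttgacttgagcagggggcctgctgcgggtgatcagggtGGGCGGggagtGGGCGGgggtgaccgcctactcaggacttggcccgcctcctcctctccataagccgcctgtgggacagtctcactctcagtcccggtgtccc
Ptgs1, chr2:36230176-36230475, plus strand: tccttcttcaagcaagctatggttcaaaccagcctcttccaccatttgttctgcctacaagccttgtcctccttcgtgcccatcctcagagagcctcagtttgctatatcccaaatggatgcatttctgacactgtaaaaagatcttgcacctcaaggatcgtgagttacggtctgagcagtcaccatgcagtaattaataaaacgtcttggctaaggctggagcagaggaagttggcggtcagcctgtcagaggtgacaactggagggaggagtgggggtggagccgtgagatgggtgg
The Ptgs2 window held 1 GC box (GGGCGG), 1 C/EBP-type match (TTGCNNAA) and 1 core of the cyclic AMP response element (TGACGT, here on the other strand), which overlapped an E-box (CACGTG). The Ptges window held 2 GC boxes, and the Ptgs1 window held no match to any of 9 motifs searched on both strands.

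Among 32851 promoter windows of this length in the table, 35.7% held a GC box, 10.8% a C/EBP-type match, 7.51% a cyclic AMP response element core and 7.15% an E-box. The other motifs searched were AP-1 (TGANTCA, 7.81% of windows), GAS (TTCNNNGAA, 8.3%), the ISRE-type GAAANNGAA (8.56%), the TATA box TATAAA (13.6%) and an NF-kB motif (8.46%). Windows were found for 9 of the 10 members, all but Alox5ap. An E-box lay in the window of Ptges2, a GC box in that of Alox5, an AP-1 match and 2 TATA boxes in that of Tbxas1 and a TATA box in 1 of the 2 windows of Pla2g4a, while those of Lta4h and Ltc4s held none of the 9. A match is a description of the letters in the window and not a bound site.

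The BMDM-labelled libraries held 15072109 to 18878107 counts and the RAW264.7 libraries 11876719 to 44583327. Nos2 was at 10370 to 11530 CPM (counts per 1000000, scaled with edgeR's TMM factors) in stimulated WT and at 870.5 to 911.8 CPM in stimulated iNOS KO libraries, and without stimulation at 1.246 to 1.526 CPM in WT and at 0 in iNOS KO. Akr1a1 was at 576.1 and 674.7 CPM in stimulated WT and at 370.4 and 211.8 CPM in the stimulated libraries labelled Akr1a1 KO, and without stimulation at 426.9 and 488.3 against 206 and 21.85 CPM. The libraries labelled Akr1a1 KO lay below the WT libraries in both states. Neither difference passed the test (adjusted p = 0.643 and 0.56), so in these counts the knockout itself rests on the labels. The study's methods describe screening the knockout clones by immunoblot for the Akr1a1 protein, which transcript counts cannot show. For replicate B of both unstimulated RAW264.7 groups, the sample title says stimulated while the treatment field and the library name say unstimulated, and the latter were used. Nos2 was at 30.66 CPM in that WT library and at 38.13 CPM in that Akr1a1 KO library. The stimulated RAW264.7 libraries held 4155 to 8806 CPM of Nos2. Of the BMDM-labelled libraries, replicate B of stimulated iNOS KO stood apart from its group (chi-square per degree of freedom 28.8 and 36.8 against the others, 2.65 to 7.74 among other replicate pairs of that experiment), and values without it are given where it matters. The macrophage genes Cd68 (563.9 to 914 CPM), Lyz2 (3234 to 7363) and Spi1 (377.7 to 518.8) were present in all BMDM-labelled libraries. Pycard, known to be silent in RAW264.7 cells, was at 0 to 0.832 CPM in them, within reach of the 0.0785 to 0.563 CPM of the RAW264.7 libraries. The proliferation gene Mki67 was at a mean of 537.5 CPM in unstimulated WT BMDM-labelled libraries, against 1305 CPM in unstimulated WT RAW264.7. H2-Ea, a gene that C57BL/6 mice are known not to express, was at a mean of 9.456 CPM in stimulated WT and 5.763 CPM in stimulated iNOS KO BMDM-labelled libraries and at 0 in all RAW264.7 libraries. The study describes proliferation as blocked by NO• in stimulated RAW264.7 cells, and BMDM as not proliferating in any genotype or state. Mki67 and H2-Ea thus depart from what is described for C57BL/6 BMDM, and H2-Ea also departs from the RAW264.7 libraries here. The cell label was not settled by these values. The methods call the replicates of the iNOS experiment biological without saying what was separate, so p-values measure the spread between libraries, which may be technical. For BMDM the methods pool the marrow of each genotype, so the libraries of a genotype may share a pool. A genotype difference could then not be told apart from a difference between pools. Variation between animals, or between clones if the cells were RAW264.7, may be missing from these p-values.

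Stimulation was the contrast in which the pathway moved furthest, and its largest changes ran in the same direction in both experiments. In WT BMDM-labelled cells 2 of the 10 members rose (Ptgs2 and Ptges) and 3 fell (Ptgs1, Alox5 and Lta4h) at an adjusted p under 0.05, where 32.4% of all tested genes were called higher and 28.5% lower. In WT RAW264.7 cells 2 rose (Ptgs2 and Ptges) and 3 fell (Ptgs1, Ptges2 and Lta4h), against 18.5% and 19.2% of all genes. In iNOS KO cells 5 rose and 3 fell (background 27.3% and 24.6%), and in Akr1a1 KO cells 2 rose and 2 fell (background 19.8% and 19.4%). With 10 members such shares are coarse, and the account below is of single genes. Each genotype's response was measured against its own unstimulated libraries, and the genotype comparisons reuse the same libraries. With library totals in place of TMM factors, a scaling that was added after these factors had been seen to differ between the states, the median log2 fold change of all genes upon stimulation moved from 0.07 to -0.39 in WT and from 0 to -0.41 in iNOS KO BMDM-labelled cells, and from -0.03 to -0.26 in WT and from 0.02 to -0.12 in Akr1a1 KO RAW264.7 cells. Of all calls, the share that was higher then went from 53.2% to 33.9%, from 52.6% to 28.2% and, in WT RAW264.7 cells, from 49.1% to 35.8%, and the members were split into 2 higher and 5 lower in WT and 3 higher and 4 lower in iNOS KO BMDM-labelled cells. In bulk RNA, fewer cells expressing a gene and less RNA per cell cannot be told apart.

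**Figure D1:**
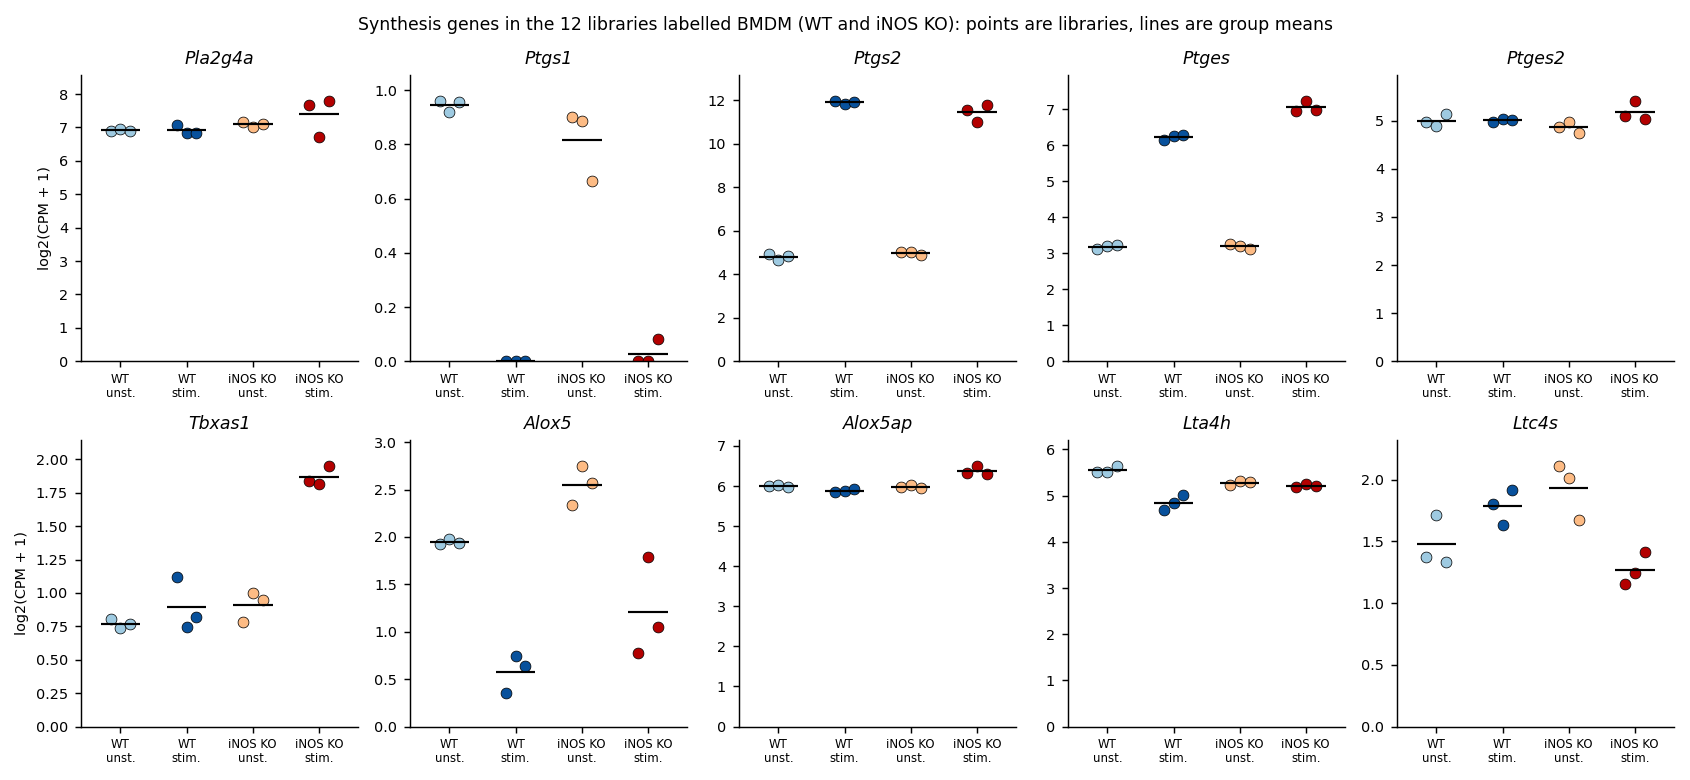
Levels of the 10 members in the 12 BMDM-labelled libraries, as log2(CPM + 1) on axes that start at 0, with a point for each library (replicates A, B and C from left to right) and a line for the group mean. Ptgs2 and Ptges were high in every stimulated library, and Tbxas1 was high only in the 3 stimulated iNOS KO libraries, at 2.52 to 2.87 CPM.

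The response of the member that releases arachidonate was not called in any of the 4 genotypes, and in iNOS KO cells this rested on 1 library. Pla2g4a (ENSMUSG00000056220), the cytosolic phospholipase A2 that acts on arachidonate-bearing phospholipids, was at 118.1, 123.6 and 117.2 CPM in unstimulated and at 134.6, 113 and 113.8 CPM in stimulated WT libraries of the iNOS experiment (replicates A, B and C, as in all lists of 3 below). In iNOS KO it was at 143.5, 128.6 and 135.9 CPM without and at 202.1, 103.2 and 222.5 CPM with stimulation. The response in iNOS KO was 0.37 (SE 0.18, adjusted p = 0.0973), and it was called without replicate B of the stimulated group (0.64, adjusted p = 5.72e-09) and with the replicate letter as a block within each genotype (0.30, adjusted p = 0.0474). The WT groups overlapped, and in stimulated iNOS KO replicates A and C were above all other libraries while replicate B was below them. Between stimulated iNOS KO and WT the log2 fold change was 0.55 (SE 0.18, adjusted p = 0.01998), with overlapping groups. Without replicate B of iNOS KO it was 0.82 (adjusted p = 7.16e-11), and the call was lost without replicate A (0.43, adjusted p = 0.113) or C (0.34, adjusted p = 0.127) of that group, without WT replicate B (0.50, adjusted p = 0.0708) or C (0.51, adjusted p = 0.0703), or with only the compared groups in the fit (0.62, adjusted p = 0.0561). In RAW264.7 cells Pla2g4a was at 180.2 and 224.5 CPM in unstimulated and at 142 and 197.1 CPM in stimulated WT libraries, and at 169.8 and 240.1 against 146.5 and 154.6 CPM in Akr1a1 KO. Only the Akr1a1 KO groups did not overlap, and the log2 fold change there was -0.45 (SE 0.22, adjusted p = 0.138). If the replicate letters mark the clones and enter as a block, this value is -0.43 with an adjusted p of 0.0343.

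The cyclooxygenases moved in opposite directions. Ptgs2 (ENSMUSG00000032487) was at 28.96, 23.96 and 27.12 CPM in unstimulated and at 4022, 3612 and 3804 CPM in stimulated WT BMDM-labelled libraries. Its log2 fold change was 7.16 (SE 0.18, adjusted p = 1.74e-15), which is 143-fold. In iNOS KO cells it was at 31.06, 31.8 and 28.4 CPM before and at 3017, 2007 and 3496 CPM after stimulation, or 93.4-fold (log2 fold change 6.54, SE 0.17, adjusted p = 5.61e-15). Every stimulated library lay far above every unstimulated one, and all 3 stimulated iNOS KO libraries lay below the 3 stimulated WT libraries. In RAW264.7 cells Ptgs2 started lower, at 1.816 and 2.3 CPM in WT cells with 2.435 and 2.052 CPM for Akr1a1 KO cells. It reached 4851 and 10480 CPM in stimulated WT cells (log2 fold change 11.82, SE 0.52, adjusted p = 2.71e-06) and 6087 and 5045 CPM in stimulated Akr1a1 KO cells (11.29, SE 0.51, adjusted p = 3.51e-06). The stimulated WT libraries spanned both Akr1a1 KO values.

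Ptgs1 (ENSMUSG00000047250) fell in every group that was stimulated. RAW264.7 WT cells held 99.87 and 102.8 CPM without and 9.073 and 9.287 CPM with stimulation (log2 fold change -3.46, SE 0.69, adjusted p = 0.00473). In Akr1a1 KO cells it was at 17.51 and 79.73 CPM before and at 1.273 and 4.646 CPM after stimulation (-4.04, SE 0.75, adjusted p = 0.00302). Stimulated and unstimulated libraries did not overlap in either genotype, although the 2 unstimulated Akr1a1 KO libraries differed widely from each other. In BMDM-labelled cells Ptgs1 was scarce before stimulation, with 0.9471, 0.8894 and 0.9392 CPM in WT (16 to 19 counts a library) and 0.8667, 0.846 and 0.5855 CPM in iNOS KO (12 to 18 counts). All 3 stimulated WT libraries and 2 of the 3 stimulated iNOS KO libraries held 0 counts, and the remaining one held 1 count. Against a floor of 3 counts over the group, Ptgs1 was at least 13.5-fold lower in WT cells upon stimulation. In iNOS KO cells the 47 unstimulated counts against 1 stimulated count gave a ratio of 35.4 on the CPM scale, with an exact 95% interval of 6.05 to 1427 that covers counting error only.

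Per transcript length, the cyclooxygenase pool was thus of different make-up at rest. As a share of the summed TPM (transcripts per 1000000, counts divided by gene length) of both genes, Ptgs2 was 1.52% and 1.86% in the unstimulated WT RAW264.7 libraries and 10.6% and 2.14% in unstimulated Akr1a1 KO. In unstimulated BMDM-labelled libraries it was 95.8% to 96.3% in WT and 96.8% to 97.6% in iNOS KO. Ptgs1 led in resting RAW264.7 cells and Ptgs2 in resting BMDM-labelled cells, and the tables were normalized separately, so no test sets these against each other. After stimulation the share was 99.8% and 99.9% in WT and 99.98% and 99.89% in Akr1a1 KO RAW264.7 libraries, and at least 99.9% in all 6 BMDM-labelled libraries.

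**Figure D2:**
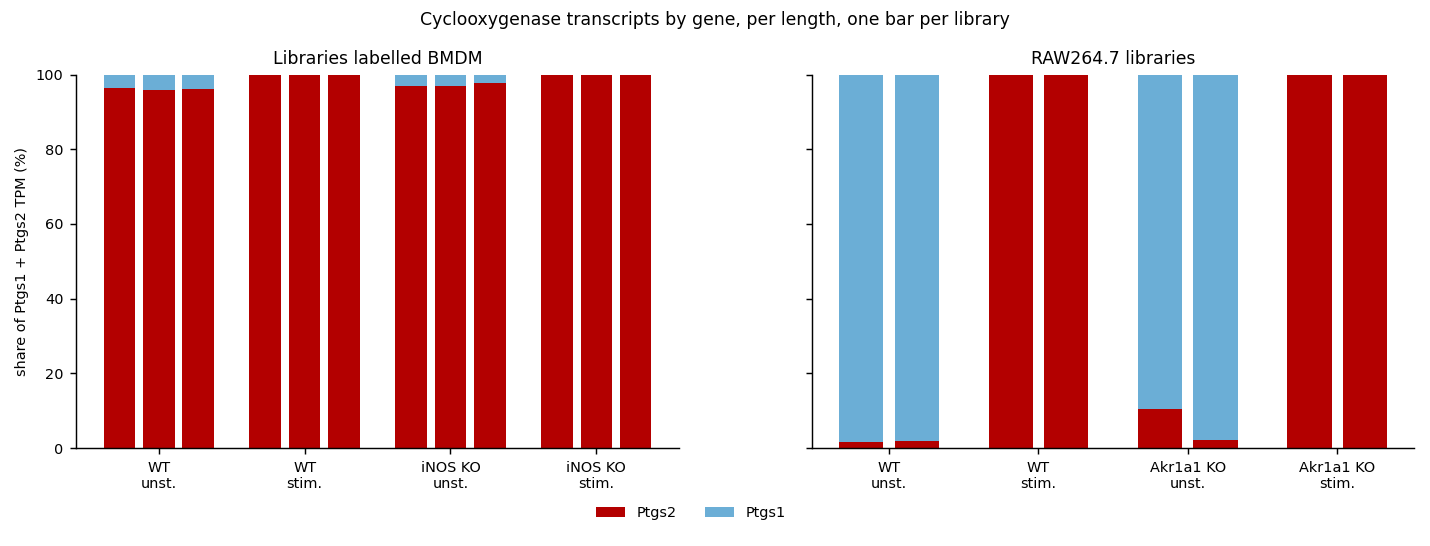
Share of Ptgs2 and Ptgs1 in the summed TPM of both genes (y axis, percent, from 0 to 100), with 1 bar for each library. Resting RAW264.7 bars are mostly Ptgs1, with Ptgs2 between 1.52% and 10.6%, and every stimulated bar is nearly all Ptgs2.

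Of the prostaglandin E synthases, the inducible one rose everywhere. Ptges (ENSMUSG00000050737), the microsomal synthase, was at 7.727, 8.172 and 8.335 CPM in unstimulated and at 69.39, 75.08 and 77.44 CPM in stimulated WT BMDM-labelled libraries, a 9.16-fold rise (log2 fold change 3.20, SE 0.097, adjusted p = 2.20e-14). In iNOS KO it went from 8.667, 8.261 and 7.661 CPM to 123.5, 150.8 and 126.5 CPM, a 16.3-fold rise (4.03, SE 0.097, adjusted p = 1.76e-15). All 3 stimulated iNOS KO libraries lay above the 3 stimulated WT libraries, and resting libraries of both genotypes overlapped. In RAW264.7 WT cells Ptges went from 1.38 and 2.3 CPM to 140.1 and 54.99 CPM (log2 fold change 5.64, SE 0.50, adjusted p = 6.75e-05). In Akr1a1 KO cells it went from 4.477 and 4.974 CPM to 45.69 and 63.53 CPM (3.52, SE 0.45, adjusted p = 0.000439). Resting Akr1a1 KO libraries lay above resting WT libraries, and stimulated libraries overlapped. The pseudogene Gm13400 shares 380 bases with Ptges on the same strand and held 1 to 28 counts in the BMDM-labelled and 0 to 20 in the RAW264.7 libraries, so the lowest Ptges values are uncertain.

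Ptges2 (ENSMUSG00000026820), the second membrane-associated prostaglandin E synthase, stayed within a narrow range. Its WT BMDM-labelled libraries were at 30.36, 28.63 and 34.05 CPM before and at 30.47, 31.87 and 31.54 CPM after stimulation (log2 fold change 0.01, SE 0.10, adjusted p = 0.917). In iNOS KO it was at 28.21, 30.31 and 25.96 against 33.29, 41.75 and 31.75 CPM, a log2 fold change of 0.34 (SE 0.10, adjusted p = 0.0123). That call was lost without replicate C of unstimulated iNOS KO (0.28, adjusted p = 0.0641), and its direction turned when counts were scaled by library totals in place of TMM (-0.08, adjusted p = 0.512). In RAW264.7 cells Ptges2 was at 32.32 and 30.31 CPM in unstimulated and at 21.57 and 22.63 CPM in stimulated WT libraries, which did not overlap (-0.50, SE 0.14, adjusted p = 0.0243). Leaving out any one of these 4 libraries ended the call (adjusted p from 0.0615 to 0.114), as did testing without the count filter (0.0545) or with only the compared groups in the fit (0.0733). Akr1a1 KO libraries were at 27.25 and 30.61 CPM before and at 22.04 and 23.98 CPM after stimulation (-0.33, SE 0.14, adjusted p = 0.101).

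Thromboxane synthase was a rare transcript. Tbxas1 (ENSMUSG00000029925), which makes thromboxane A2 from prostaglandin H2, was at 0.7477, 0.6671 and 0.7044 CPM in unstimulated and at 1.177, 0.6752 and 0.7626 CPM in stimulated WT BMDM-labelled libraries, with as few as 10 counts in a library. In iNOS KO it was at 0.7222, 0.9953 and 0.9271 CPM before and at 2.571, 2.524 and 2.865 CPM after stimulation. The stimulated iNOS KO libraries stood above all 9 others, with a 3.002-fold rise upon stimulation (log2 fold change 1.59, SE 0.24, adjusted p = 3.1e-05). In RAW264.7 cells Tbxas1 ranged over 1.1 to 3.272 CPM without a call in any comparison. Tbxas1 overlaps 762 bases of Hipk2 on the opposite strand, a gene with 1224 to 2427 counts in the BMDM-labelled and 1780 to 7839 in the RAW264.7 libraries, and the strand used in counting is not given in the sources used here, so reads from the shared bases cannot be told apart.

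In the 5-lipoxygenase branch the enzyme and its partner behaved differently. Alox5 (ENSMUSG00000025701) was at 2.792, 2.946 and 2.818 CPM in unstimulated and at 0.277, 0.6752 and 0.5546 CPM (4 to 10 counts) in stimulated WT BMDM-labelled libraries, a log2 fold change of -2.48 (SE 0.39, adjusted p = 3.18e-05). In iNOS KO cells it was at 4.044, 5.723 and 4.928 CPM before and at 0.707, 2.451 and 1.074 CPM after stimulation (-1.83, SE 0.30, adjusted p = 6.21e-05). No stimulated library of either genotype reached its unstimulated group. In RAW264.7 cells no response of Alox5 was called: WT libraries were at 4.431 and 13.09 CPM before and at 8.106 and 8.218 CPM after stimulation, and Akr1a1 KO libraries at 2.985 and 3.513 against 3.417 and 4.144 CPM. The Akr1a1 KO libraries were below the WT libraries in both states.

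Alox5ap (ENSMUSG00000060063), the activating protein that presents arachidonate to 5-lipoxygenase, was the most abundant member at rest in BMDM-labelled cells per length. Its WT libraries were at 63.26, 64.71 and 62.4 CPM before and at 56.51, 57.93 and 60.25 CPM after stimulation, which did not overlap, with a log2 fold change of -0.12 (SE 0.071, adjusted p = 0.142). The iNOS KO libraries were at 62.5, 64 and 60.45 CPM before and at 79.7, 89.69 and 77.46 CPM after stimulation (0.40, SE 0.070, adjusted p = 0.000123). Stimulated iNOS KO libraries were above all 9 others. With library totals as the scale this rise was gone (-0.02, adjusted p = 0.841) and the WT change was called as a fall (-0.59, adjusted p = 1.06e-06), as it was with only the compared groups in the fit (-0.18, adjusted p = 0.00723). In RAW264.7 cells Alox5ap was at 17.65 and 23.5 against 36.29 and 17.17 CPM in WT and at 28.43 and 24.98 against 9.782 and 17.89 CPM in Akr1a1 KO. The Akr1a1 KO groups did not overlap, with a log2 fold change of -0.95 (SE 0.39, adjusted p = 0.0866), which was -0.99 (adjusted p = 0.0236) with the replicate letter as a clone block.

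Lta4h (ENSMUSG00000015889), which forms leukotriene B4, fell upon stimulation except in iNOS KO cells. WT BMDM-labelled libraries were at 44.57, 44.64 and 49.01 CPM before and at 24.86, 27.48 and 31.48 CPM after stimulation (log2 fold change -0.72, SE 0.087, adjusted p = 1.42e-06). The iNOS KO libraries were at 36.54, 39.12 and 38.25 against 35.35, 37.06 and 35.81 CPM and overlapped (-0.07, SE 0.086, adjusted p = 0.498), although library totals as the scale gave a fall there too (-0.49, adjusted p = 4.13e-05). In RAW264.7 cells the WT libraries went from 59.05 and 61.04 CPM to 33.69 and 34.33 CPM (-0.82, SE 0.11, adjusted p = 0.000704). Those of Akr1a1 KO went from 64.25 and 68.7 CPM to 38.66 and 38.92 CPM (-0.78, SE 0.11, adjusted p = 0.000857). The falls in the RAW264.7 genotypes differed by 0.04 (SE 0.16, adjusted p = 1).

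Ltc4s (ENSMUSG00000020377), which forms leukotriene C4, was low throughout. WT BMDM-labelled libraries were at 1.595, 2.279 and 1.526 CPM before and at 2.493, 2.093 and 2.773 CPM after stimulation (log2 fold change 0.45, SE 0.24, adjusted p = 0.116). The iNOS KO libraries were at 3.322, 3.036 and 2.196 against 1.221, 1.37 and 1.671 CPM, a fall of 1.994-fold (log2 fold change -0.996, SE 0.24, adjusted p = 0.00203). The WT groups overlapped and the iNOS KO groups did not. Without replicate B of unstimulated WT the WT value was 0.65 and was called (adjusted p = 0.0431). The RAW264.7 libraries were at 0.946 to 1.728 CPM with no call. The antisense gene Gm26542 overlaps Ltc4s over 1664 bases and held 1 to 13 counts in the BMDM-labelled libraries, where Ltc4s held as few as 19, so the split between them is uncertain.

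**Figure D3:**
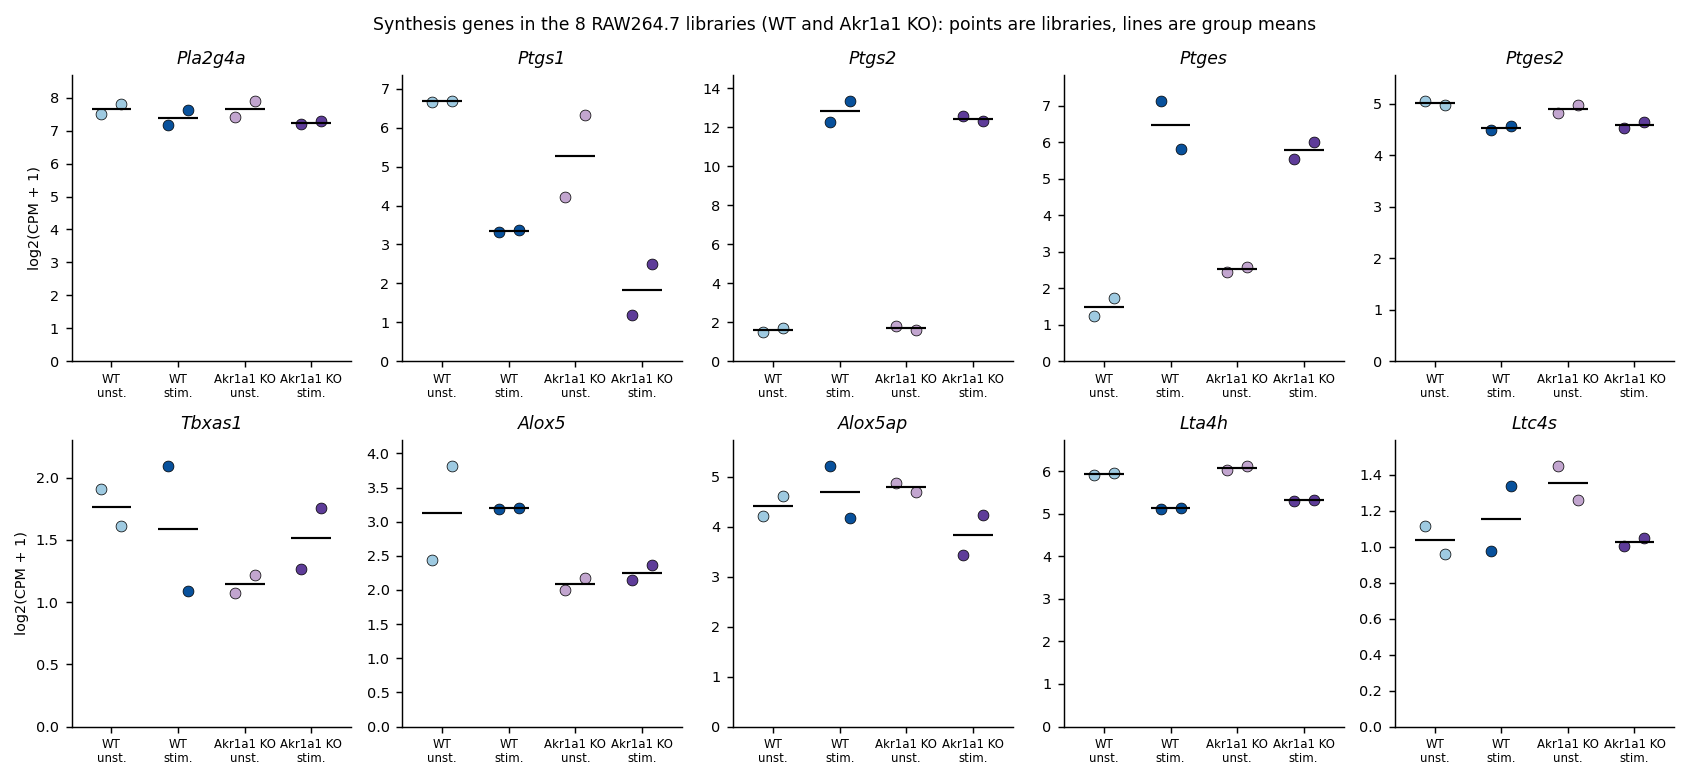
Levels of the 10 members in the 8 RAW264.7 libraries, as log2(CPM + 1) on axes that start at 0, with a point for each library (replicates A and B from left to right) and a line for the group mean. Ptgs2 reached 4851 CPM or more in every stimulated library and Ptgs1 fell, while Alox5 lay lower in the 4 Akr1a1 KO libraries than in the 4 WT libraries.

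The order of the transcripts per length shows the rearrangement as a whole. In unstimulated WT BMDM-labelled cells the median TPM fell from Alox5ap (162.8) through Pla2g4a (67.54), Lta4h (26.88), Ptges2 (21.93), Ptgs2 (21.13), Ptges (7.565), Ltc4s (5.748), Alox5 (2.484) and Ptgs1 (0.863) to Tbxas1 (0.276). Ptges2 and Ptgs2 overlapped in their libraries, as did Ptges and Ltc4s, and the other neighbours did not. After stimulation Ptgs2 led at 2122 TPM, followed by Alox5ap (108.4), Ptges (50.29) and Pla2g4a (46.56), of which the last pair overlapped. In stimulated iNOS KO cells the same 4 led, with Ptgs2 at 1765, Alox5ap at 150.3, Ptges at 86.39 and Pla2g4a at 84.69 TPM. In RAW264.7 WT cells the order at rest was headed by Pla2g4a (115.2), Ptgs1 (95.19), Alox5ap (52.62) and Lta4h (35.91), with Ptgs2 (1.633) and Tbxas1 (0.973) at the end. After stimulation Ptgs2 stood at 5135 TPM, above Pla2g4a (81.57), Ptges (76.85) and Alox5ap (58.24), whose neighbours overlapped. In Akr1a1 KO cells Pla2g4a (115.7) again headed the order at rest, with Alox5ap (67.85), Ptgs1 (45.1) and Lta4h (39.3) overlapping as neighbours behind it, and Ptgs2 rose from 1.768 to 4094 TPM to lead after stimulation. TPM takes no TMM factor, so it moves differently from CPM between the states. The least precise levels are those of Ptgs1, Alox5, Tbxas1 and Ltc4s, which held as few as 0, 4, 10 and 13 counts in a library.

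The question whether NO• production bears on these genes was addressed by comparing iNOS KO with WT in each state. Without stimulation 0 of 10 members were called by edgeR (background 1.88% of all genes higher and 4.09% lower), 3 had an unadjusted p under 0.05, and DESeq2 called 0. The 3 were Alox5 (log2 fold change 0.78, SE 0.26, adjusted p = 0.097), Lta4h (-0.28, SE 0.084, adjusted p = 0.0666) and Ltc4s (0.66, SE 0.22, adjusted p = 0.103). Without replicate B of stimulated iNOS KO, which enters the common estimate of spread, Alox5 (adjusted p = 0.00475) and Lta4h (adjusted p = 0.00821) were called. Of the 12 fits that each left out a library, 3 called Lta4h and 1 called Alox5. With library totals as the scale the share of higher calls among all genes was 42.6% in place of 31.5%. In a fit of only the unstimulated groups 4 were called, these 3 and Pla2g4a (0.21, adjusted p = 0.00665). The share of all genes called in that fit was not counted. After stimulation 6 members were higher in iNOS KO than in WT (Pla2g4a, Ptges, Tbxas1, Alox5, Alox5ap and Lta4h) and 2 were lower (Ptgs2 and Ltc4s), where 24.2% of all tested genes were called higher and 24.2% lower. The 8 included 7 whose libraries did not overlap. The share of all called genes without overlap was not counted, so the 7 are a description of these members only.

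The differences in Ptges, Tbxas1, Alox5ap and Lta4h between the stimulated genotypes were the firmest across the settings tried. That of Tbxas1 rests on 10 to 17 counts a library in WT and 35 to 48 in iNOS KO, and on bases shared with Hipk2. Ptges was 1.81-fold higher in iNOS KO (log2 fold change 0.85, SE 0.083, adjusted p = 1.91e-07) and Tbxas1 3.04-fold higher (1.60, SE 0.26, adjusted p = 5.76e-05). Alox5ap was 1.41-fold higher (0.50, SE 0.071, adjusted p = 1.52e-05) and Lta4h 1.29-fold higher (0.37, SE 0.088, adjusted p = 0.00223). These 4 kept their calls without each library in turn and under every other setting tried but the limit of an absolute log2 fold change over 1, which only Tbxas1 of them passed. Alox5 was higher by 1.44 (SE 0.45, adjusted p = 0.0146), a call that was lost without iNOS KO replicate B (0.82, adjusted p = 0.106) or WT replicate A (1.15, adjusted p = 0.0716).

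Ptgs2 was lower in stimulated iNOS KO by a log2 fold change of -0.42 (SE 0.13, adjusted p = 0.0149), and by -0.23 (adjusted p = 0.00399) without iNOS KO replicate B, its lowest library. The call was lost without WT replicate A (-0.39, adjusted p = 0.057), with library totals as the scale (-0.33, adjusted p = 0.0614) and with only the compared groups in the fit (-0.35, adjusted p = 0.12). Ltc4s was lower by -0.78 (SE 0.25, adjusted p = 0.0175), and its call was lost without iNOS KO replicate A (-0.69, adjusted p = 0.0602) or WT replicate C (-0.68, adjusted p = 0.0659). For these transcripts the sign was the same in all settings tried.

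**Figure D4:**
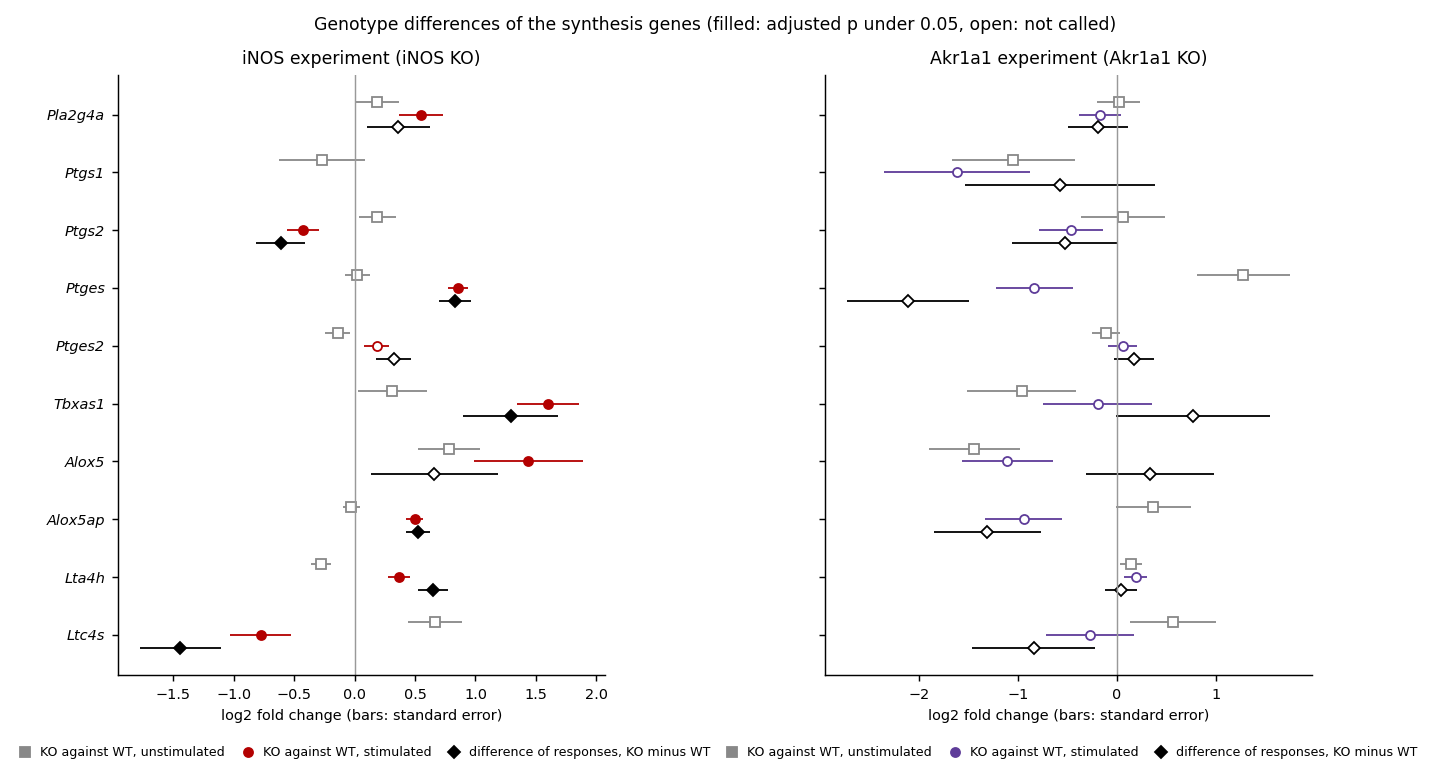
Log2 fold changes of the members between genotypes (x axis, KO over WT, bars are standard errors) for unstimulated cells, stimulated cells and the difference of the stimulation responses, with filled symbols where the adjusted p was under 0.05. Ptgs1 is drawn only without stimulation in the iNOS experiment, where its stimulated groups held 1 count at most, and all Akr1a1 symbols are open.

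The responses to stimulation themselves differed between iNOS KO and WT for 6 members (4 of them larger or more positive in iNOS KO and 2 smaller), where 20% of all genes had a higher and 15.4% a lower response. Ptges responded more strongly in iNOS KO by 0.83 (SE 0.13, adjusted p = 0.000109), Tbxas1 by 1.29 (SE 0.39, adjusted p = 0.0165) and Alox5ap by 0.52 (SE 0.099, adjusted p = 0.00047). Lta4h, which fell in WT, had no called response in iNOS KO, and the responses differed by 0.65 (SE 0.12, adjusted p = 0.000455). Ltc4s differed by -1.44 (SE 0.34, adjusted p = 0.00273) and Ptgs2, still highly induced, by -0.61 (SE 0.20, adjusted p = 0.0254). The Ptgs2 difference was -0.42 (adjusted p = 0.00103) when replicate B of stimulated iNOS KO was left out, and its call was lost without WT stimulated replicate A (adjusted p = 0.0607), WT unstimulated replicate B (0.0715) or iNOS KO unstimulated replicate A (0.0535) or B (0.0582). For Alox5 the responses differed by 0.66 (SE 0.53, adjusted p = 0.378), and for Pla2g4a by 0.36 (SE 0.26, adjusted p = 0.312), which was 0.63 and called (adjusted p = 2.82e-06) when that library was left out.

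The summed markers of other cell types differed between stimulated iNOS KO and WT libraries, except those of neutrophils and lymphocytes, which overlapped. The 5 lymphocyte markers were near the floor, at 0 to 0.6925 CPM in stimulated WT and 0 to 0.0721 CPM in stimulated iNOS KO. The 9 mast cell and basophil markers summed to 11.02 to 13.71 CPM in stimulated WT and to 50.45 to 58.33 CPM in stimulated iNOS KO libraries, mostly Hdc, with 5 or 6 of the 9 at 0, among them Fcer1a, Ms4a2 and Mcpt8. Over all BMDM-labelled libraries Kit reached 5.192 CPM and Gata2 4.542 CPM. The 6 megakaryocyte and platelet markers, of cells known for Tbxas1, summed to 4.862 to 6.863 CPM in stimulated WT and to 1.947 to 2.208 CPM in stimulated iNOS KO. The 10 neutrophil markers, nearly all of it S100a8, summed to 35.81 to 62.12 and 38.49 to 44.28 CPM, with Ly6g and Ltf at 0 in every library. The 6 fibroblast markers, mostly Dcn, summed to 3.578 to 4.922 CPM in stimulated WT and to 10.38 to 15.82 CPM in stimulated iNOS KO, with Col3a1 and Thy1 at 0. The 5 dendritic cell markers summed to 0.9003 to 1.595 CPM in stimulated WT and to 2.38 to 3.7 CPM in stimulated iNOS KO, with Xcr1 (log2 fold change 1.55, adjusted p = 0.00549) and Zbtb46 (1.016, adjusted p = 0.0496) called higher and 3 of the 5 at 0 in every iNOS KO library. The part of other cells in the differences was not tested. Mki67, Top2a, Pycard and H2-Ea, the 4 genes used to check the cell label and dominated by the proliferation genes Mki67 and Top2a, summed to 46.24 to 49.72 CPM in stimulated WT and to 323.9 to 593.6 CPM in stimulated iNOS KO libraries, and the part of proliferation was not tested either. The 9 macrophage markers summed to 8149 to 9138 CPM in stimulated WT and to 12730 to 13560 CPM in stimulated iNOS KO. In stimulated RAW264.7 libraries the neutrophil markers summed to 120.7 to 144.7 CPM in WT and to 248 to 420 CPM in Akr1a1 KO. The macrophage markers summed there to 12230 to 12440 CPM in WT and to 5293 to 9239 CPM in Akr1a1 KO, and the platelet markers to 16.66 to 69.45 and 39.87 to 94.1 CPM.

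For Akr1a1, no genotype difference of a member was called. Without stimulation 0 of 10 members passed by edgeR (background 0.23% higher and 0.353% lower), 2 had an unadjusted p under 0.05 (Alox5 and Ptges), and DESeq2 called 0. After stimulation 0 of 10 passed (background 0.0869% and 0.199%), 2 had an unadjusted p under 0.05 (Alox5 and Alox5ap), and DESeq2 called 0. Alox5 was lower in Akr1a1 KO by -1.44 (SE 0.46, adjusted p = 0.393) at rest and by -1.11 (SE 0.46, adjusted p = 0.43) after stimulation, with all 4 KO libraries below all 4 WT libraries. Its value at rest was -0.44 without replicate B and -2.001 without replicate A of unstimulated WT. Ptgs1 was lower by -1.05 (SE 0.62, adjusted p = 0.771) and -1.62 (SE 0.74, adjusted p = 0.464), with no overlap in either state. These Ptgs1 values were -0.35 and -1.01 without replicate A, and -2.53 and -2.85 without replicate B, of the Akr1a1 KO group of that state. Neither of these differences passed the test, and their standard errors leave room for both large and small effects.

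Ptges was higher by 1.28 in resting Akr1a1 KO cells (SE 0.47, adjusted p = 0.51) and lower by -0.83 after stimulation (SE 0.39, adjusted p = 0.475). Its response was thus smaller in Akr1a1 KO by -2.12 (SE 0.62, unadjusted p = 0.00852, adjusted p = 0.871), and DESeq2 called this difference (-2.19, adjusted p = 0.0401). Without replicate A of stimulated WT, Ptges differed by -0.038 after stimulation (adjusted p = 0.979) and by -1.36 in its response (adjusted p = 0.379), and without replicate B of that group by -1.38 (adjusted p = 0.06) and -2.69 (adjusted p = 0.117). Ptges was the only member called by DESeq2 for the difference of responses, where edgeR called 0 of 10 (background 0.00511% higher and 0.0153% lower) and 2 had an unadjusted p under 0.05, Ptges and Alox5ap (-1.31, SE 0.54, adjusted p = 0.894). Ptgs2 differed by -0.46 between the stimulated genotypes (SE 0.32, adjusted p = 0.643). Groups of 2 libraries did not overlap for 7 members at rest and for 3 after stimulation. Groups this small can also separate without a difference. The share of all genes without overlap was not counted, so nothing is drawn from these counts. Without the filter on counts 3 members were called at rest (Ptgs1, Ptges and Alox5) and 3 after stimulation (Ptgs1, Ptges and Alox5ap). The backgrounds given are those of the filtered fit, and the share of all genes called without the filter was not counted.

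The other genes of the eicosanoid system were taken from 5 lists of 85 symbols, of which 82 were in the tables and 60 were tested in the BMDM-labelled and 57 in the RAW264.7 libraries. Upon stimulation 23 rose and 22 fell in WT (background over all genes 32.4% and 28.5%) and 29 rose and 13 fell in iNOS KO BMDM-labelled cells (27.3% and 24.6%). In RAW264.7 cells 13 rose and 18 fell in WT (18.5% and 19.2%), and 12 rose and 17 fell in Akr1a1 KO (19.8% and 19.4%). Between iNOS KO and WT, 26 were higher and 8 lower after stimulation (24.2% and 24.2%), with a median log2 fold change of 0.35 beside -0.04 over all genes, and 5 were higher and 8 lower at rest (1.88% and 4.09%). The shares of single lists below are to be read against the same backgrounds. With genes of 3 counts or fewer over each group left out, the median after stimulation was 0.36, and no tested gene of these lists had 0 counts in one of these groups and over 3 in the other. Fold changes named below follow the rule of the 3 largest rises and falls of a list.

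Genes of arachidonate release and fatty acid handling moved in both directions. Of 27 tested, 15 rose and 9 fell in stimulated WT BMDM-labelled cells, led by Plaat3 (log2 fold change 6.96), Pla2g7 (5.87) and Acsl1 (2.52), and by Fads2 (-4.66), Fads1 (-2.39) and Lpcat1 (-1.70). Plaat3 and Pla2g7 are phospholipases of the A type, the latter known for cleaving platelet-activating factor, and Fads1 and Fads2 are the desaturases that make arachidonic acid. In stimulated iNOS KO against WT cells 16 were higher and 5 lower, with a median of 0.35. The secreted phospholipase Pla2g5 was at 116.0 ± 5.47 CPM against 20.87 ± 1.6 CPM (SD, n = 3 each; log2 fold change 2.47, adjusted p = 4.00e-13), and Fads2 at 97.8 ± 10.0 against 11.09 ± 1.501 CPM (3.14, adjusted p = 3.49e-13). Pla2g4c, a paralogue of Pla2g4a, was at 1.569 against 0.1137 CPM (3.70, adjusted p = 1.46e-05). Dagla (-1.84), Pla2g7 (-1.83) and Mboat7 (-0.96) were lower.

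In RAW264.7 cells Pla2g5 rose by 5.97 in WT and by 3.63 in Akr1a1 KO cells upon stimulation, while Acsl3 (-1.90 and -1.98), Fads2 (-1.91 and -2.23) and Pla2g4c (-3.48 and -2.80) fell. Of the 25 genes tested there, 9 rose and 9 fell in WT, and 7 rose and 9 fell in Akr1a1 KO.

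Genes of prostanoid synthesis, transport and breakdown beyond the members mostly fell in stimulated WT cells. In BMDM-labelled cells 1 rose and 10 fell of 12 (median -0.65 beside 0.07 over all genes), with the aldose reductase Akr1b3 (-1.06), the cytosolic prostaglandin E synthase Ptges3 (-0.97) and Prxl2b (-1.63) named by the rule. The 1 that rose, Slco2a1, the prostaglandin transporter, was named after its values were seen and was at least 18.1-fold higher. In iNOS KO cells 5 rose and 4 fell, with Ptgr1, a prostaglandin reductase, at 1.08. Between the stimulated genotypes 7 of 12 were higher in iNOS KO and the other 5 were not called, with differences of 1.41 for Ptgr1, 0.99 for Cbr3 and 0.88 for Akr1b3, and for 7 the response was higher in iNOS KO (background 20%). In RAW264.7 cells 7 of 13 fell in WT and 6 in Akr1a1 KO, with the others not called and Ptgr1 (-2.38 and -2.08), Akr1b3 (-1.71 and -2.10) and Cbr1 (-1.21 and -1.46) in both.

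**Figure D5:**
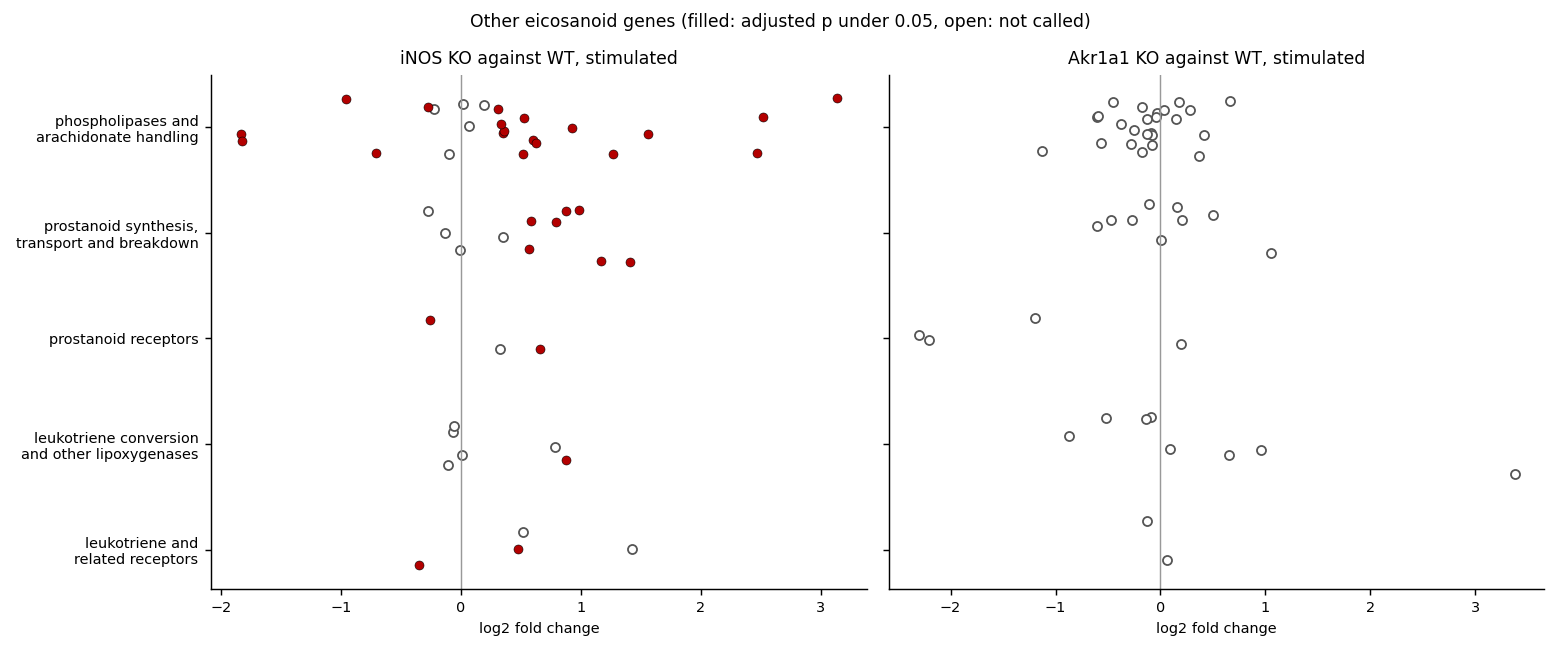
Log2 fold changes of the other eicosanoid genes between stimulated KO and stimulated WT cells (x axis), by list, with a point for each gene that had over 3 counts in a library of both groups and filled points where the adjusted p was under 0.05. Filled points appear in the iNOS panel on both sides of 0 and nowhere in the Akr1a1 panel.

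Among prostanoid receptors the prostacyclin receptor Ptgir rose by 0.89 in WT and 1.15 in iNOS KO BMDM-labelled cells and by 1.06 in WT RAW264.7 cells. It was at 34.68 ± 0.509 CPM in stimulated iNOS KO and at 22.02 ± 1.42 CPM in stimulated WT libraries (SD, n = 3 each; log2 fold change 0.66, adjusted p = 4.08e-06). The prostaglandin E2 receptor Ptger4 was lower in iNOS KO in both states, by -0.94 at rest (adjusted p = 7.46e-06) and by -0.26 after stimulation (adjusted p = 0.0422). It fell upon stimulation in WT (-0.41) and rose in iNOS KO (0.28), and these responses differed by 0.68 (adjusted p = 0.000951).

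On the leukotriene side, Mgst2, a glutathione transferase able to form leukotriene C4, was higher by 0.87 on the log2 scale in iNOS KO than in WT cells after stimulation (adjusted p = 8.33e-07) and was the only 1 of 11 conversion genes called. It was already higher at rest, by 0.53 (adjusted p = 0.00201). Mgst3 fell upon stimulation in all 4 genotypes, with log2 fold changes of -1.13 and -0.90 in WT and iNOS KO BMDM-labelled cells and of -3.81 and -3.596 in WT and Akr1a1 KO RAW264.7 cells. Abcc1, the exporter of leukotriene C4, rose in RAW264.7 cells by 1.38 in WT and 1.18 in Akr1a1 KO. Of the receptors, the cysteinyl leukotriene receptor Cysltr1 fell in WT (-2.14) and iNOS KO (-1.34), the platelet-activating factor receptor Ptafr rose (1.56 and 1.68), and Fpr2, which binds lipoxin A4, rose by 9.90 in WT and at least 4676-fold in iNOS KO, where all 3 resting libraries held 0 counts. In the Akr1a1 experiment 0 of the 57 genes were called between genotypes by edgeR in either state, with 10 at rest and 14 after stimulation at an unadjusted p under 0.05, and DESeq2 called 3 and 4.

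Genes whose levels ran most like a member were sought among protein-coding genes with a mean log2 CPM over 3, by Pearson correlation over the libraries of an experiment. Over 12 BMDM-labelled libraries Ptgs2 ran close to Iigp1 (r = 0.999) and Vwa5a (0.9985), and Ptges to Pim2 (0.999), Ifi35 (0.9987) and Psmb8 (0.9985). Over 8 RAW264.7 libraries the nearest to Ptgs2 were Ccl4 (0.9993), Osgin2 (0.999) and Milr1 (0.9987), and to Ptgs1 Il1rl1 (0.9872), Fzd7 (0.9856) and Ech1 (0.9852). Lta4h ran closest to Mif (0.9787) in the first and to Ttll12 (0.996) in the second experiment. All points share the libraries and the step between resting and stimulated cells, so these values describe that step and carry no test.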

How the data were processed

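The authors deposited 2 tables of raw read counts per gene, made from poly-A RNA libraries. CASAVA, STAR and mm10 are named in the submitters' processing notes, while the version, counting tool and strand setting are not given in the sources used here. Only 2.78% of 52073 shared gene IDs have the start listed in the GRCm38 annotation, so the tables' coordinates were not used, and promoter windows were matched by symbol. The values used were the deposited counts as they stand.

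Counts were tested with edgeR (4.0.16, R 4.3.3): genes with at least 10 counts in total, TMM scaling, 1 mean for each of 4 groups, the quasi-likelihood F test and Benjamini-Hochberg adjustment over 18691 genes of the iNOS and 19569 of the Akr1a1 experiment, with calls at an adjusted p under 0.05. The unit of the levels printed is CPM on TMM-scaled totals, or TPM from the counts and the listed gene lengths. Where all libraries of a group held 0 counts of a gene, folds are bounds against 3 counts over the group. With 1 to 3 counts over a group, the ratio of counts has an exact binomial 95% interval.

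The 10 members and all lists were chosen with earlier results of these data known. The other genes named were the 3 largest called rises and falls of each list among genes at 1 CPM or more in every library of the higher group. One gene named by the likeness rule is not reported here. Alternatives were DESeq2 (1.42.0), its size factors in edgeR, another filter and no filter, protein-coding genes alone, only the compared groups, a replicate block (the letter over all groups, or the clone), a limit on the fold change, each library left out and, added after the data were seen, library totals in place of TMM and the letter as a block within each genotype of the iNOS experiment. The pairing was checked on deviations from the group means: between stimulated and unstimulated libraries of the same letter they correlated at 0.404, 0.497 and 0.121 in iNOS KO, where the letters were taken to pair the samples, and at -0.132, -0.258 and 0.0844 in WT, where they were not. Unlike letters of the iNOS KO groups correlated from -0.462 to 0.402, the highest between stimulated C and unstimulated A. The pairing in iNOS KO is therefore an assumption that these values do not establish. The letters of the RAW264.7 libraries were entered as clones only as an alternative, since the study's methods name independent clones but do not tie the letters to them. Plots were made with matplotlib 3.10.9.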

Additional observations from a re-analysis of the deposited data

Results flagged for a closer look

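The responses of 6 members to LPS/IFNγ differed between iNOS KO and WT BMDM-labelled cells by the test of the difference itself, from edgeR's interaction contrast with adjusted p-values over all genes. Ptges (0.83 on the log2 scale, adjusted p = 0.000109), Tbxas1 (1.29, adjusted p = 0.0165), Alox5ap (0.524, adjusted p = 0.00047) and Lta4h (0.647, adjusted p = 0.000455) had the higher response in iNOS KO. Ptgs2 (-0.613, adjusted p = 0.0254) and Ltc4s (-1.441, adjusted p = 0.00273) had the lower one. Groups of 2 and 3 libraries were too small for a test of single libraries.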

How the results depend on the processing

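Counts of called members are given first and those of the other eicosanoid genes second where both moved. With a limit of an absolute log2 fold change over 1, stimulation called 24 other genes in WT, and 5 members and 24 other genes in iNOS KO BMDM-labelled cells, and 3 members in WT RAW264.7 cells. Of all tested genes, this limit left 35.4% in WT and 22.8% in iNOS KO BMDM-labelled cells and 24.4% in WT RAW264.7 cells. The same limit left 3 other genes between resting iNOS KO and WT, 2 and 12 between the stimulated genotypes, and 2 and 10 for the difference of responses. Over all tested genes it left 1.66%, 19.6% and 15% in these comparisons. Without a filter on counts, 1 member was called between resting iNOS KO and WT, and the Akr1a1 genotypes gave 3 and 5 at rest, 3 and 8 after stimulation, and 2 and 2 for the difference of responses. With only the compared groups in the fit, 4 members were called between resting iNOS KO and WT. DESeq2 called 3 other genes at rest and 4 after stimulation between the Akr1a1 genotypes, and 1 and 1 for the difference of responses. Library totals in place of TMM called 7 members in stimulated Akr1a1 KO cells, and turned Ptges2 to -0.448 in WT and -0.081 in iNOS KO, and Alox5ap to -0.017 in iNOS KO BMDM-labelled cells. Apart from the scaling and the fit's construction, the cause of these shifts was not tested. The share of all genes called was not counted for DESeq2 or for fits without the filter. Nor was it counted with only the compared groups, with a block or with a library left out.

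Leaving out each library gave 0 to 2 members and 8 to 19 other genes between resting iNOS KO and WT, and 0 to 2 other genes between the resting Akr1a1 genotypes. Without replicate B of stimulated iNOS KO, 7 members were called between the stimulated genotypes and 7 for the difference of responses.

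Same-letter libraries of different groups had correlations from -0.517 to 0.497 in the iNOS and from -0.165 to 0.438 in the Akr1a1 experiment, and all were over 0.1 between the stimulated and unstimulated iNOS KO groups. Stimulated replicate C and unstimulated replicate A of iNOS KO, of unlike letters, also correlated at 0.402. With the letter as a replicate block over all groups 8 members were called between stimulated iNOS KO and WT and 6 for the difference of responses, as without it, and the block changed no other member call. With the letter as a replicate block within each iNOS genotype 9 members and 40 other genes were called in stimulated iNOS KO, 5 and 43 in WT, and 6 and 24 for the difference of responses, and of the member calls only that of Pla2g4a in iNOS KO changed (0.304, adjusted p = 0.0474). The block within a RAW264.7 genotype, which takes the letter as a RAW264.7 clone, called 1 other gene for the difference of Akr1a1 responses.

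Depth limits what can be said of Ptgs1, Alox5, Tbxas1 and Ltc4s.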
